A study of Homo sapiens with 36 samples.

Results

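Ribosome footprints after harringtonine and after cycloheximide were compared in the BJ fibroblast cells called EH, EL and ELR, with 6 libraries for each drug. They were chosen by their titles and are 12 of the 36 libraries of a series on transformation in 2 human cell models. Each line had 2 harringtonine and 2 cycloheximide libraries. Harringtonine was given at 2 µg/ml for 5 min, and cycloheximide at 100 µg/ml for 90 s. All cells grew in medium with serum, with no other agent named for the BJ lines. BJ cells are human skin fibroblasts, and the labels do not spell out what EH, EL and ELR carry. No label says that the replicates came from different cultures, and the spread behind each p-value may be technical only.

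A ribosome protects a short stretch of the message it sits on, and the sequenced stretches (footprints) count the ribosomes on each coding region. Cycloheximide arrests ribosomes that are elongating, so its footprints lie along whole coding regions. Harringtonine stops new ribosomes at the start codon but lets those already elongating go on until they finish and leave, which is called run-off. On a long coding region the last elongating ribosomes have further to travel than on a short one. The comparison asks which coding regions still hold footprints after run-off.

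The deposited values are counts per RefSeq transcript, without positions, so footprints at a start codon and along the rest of a coding region cannot be told apart. No spike-in is described. Each value is therefore a share of its library, and "higher" or "lower" means relative to the other genes of the same library, not a gain or loss of ribosomes. Totals ranged from 129704 to 215840 counts in harringtonine libraries and from 1178301 to 2606822 in cycloheximide libraries. The 10 most counted genes held 16.4 and 16.6% of the counts in the EH harringtonine libraries, and between 6.91 and 8.54% in the EL and ELR harringtonine libraries. Of 10 fibroblast markers, none was at 0 in every library under either drug, and their summed level was 6891 to 107514 CPM (TMM-scaled counts per 1e6) in harringtonine libraries and 10047 to 39111 CPM in cycloheximide libraries. These sums rest on a few markers. The median of the 10 in a library was 21.0 to 1663 CPM under harringtonine and 12.3 to 821 CPM under cycloheximide. In ELR cycloheximide libraries COL1A2 was at 17.9 and 21.9 CPM and COL1A1 at 216 and 230 CPM. The 8 epithelial markers summed to at most 8.62 CPM in harringtonine libraries and 6.63 CPM in cycloheximide libraries, and KRT5 and CDH1 were at 0 throughout. The 5 endothelial markers summed to at most 9.24 CPM in harringtonine libraries and 7.46 CPM in cycloheximide libraries, and the 7 leukocyte markers to 17.2 to 56.9 CPM in harringtonine libraries and 98.7 to 135.3 CPM in cycloheximide libraries. The part of these markers in the results was not tested.

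Long coding regions held a larger share of the footprints in harringtonine libraries than in cycloheximide libraries, and short ones a smaller share. Of 8818 genes tested, 5510 (62.5%) differed between the drugs at an adjusted p under 0.05 in edgeR's quasi-likelihood test with line as a covariate and Benjamini-Hochberg adjustment. Of these, 2537 (28.8% of genes tested) were higher in harringtonine and 2973 (33.7%) were lower. With library totals alone the split was more uneven, with 2167 higher and 3665 lower. With the cycloheximide libraries thinned to the depth of the harringtonine libraries it was near even, with 2290 higher and 2256 lower. A change of at least 2-fold was seen for 1848 of the higher and 2009 of the lower genes, and one of at least 4-fold for 772 and 453. In each of the lines, both harringtonine libraries lay above both cycloheximide libraries for 1772 genes, and below both for 2381, together 47.1% of genes tested. The median log2 change over all genes was −0.16 with the scaling used here, −0.23 with DESeq2 size factors and −0.39 with library totals alone, so the changes below are best read against these medians.

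Across genes, the log2 change followed coding length (Spearman's rho 0.70 over 8796 genes with a known coding length, given as a description since genes are not replicates). It was 0.76 over the 4397 genes whose mean count lay above the median. The same measure was 0.01 with the GC content of the coding region, 0.09 with the mean CPM and 0.24 with the length of the 5′ untranslated region. A running median over the 200 genes nearest in length was lowest, at −1.53, around 126 codons. It passed 0 at 657 codons and stood at 2.93 around 2898 codons, the last point with enough neighbours. At 1200 codons or more 979 of 1018 genes were higher in harringtonine and 1, CAMTA1, was lower.

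**Figure D1:**
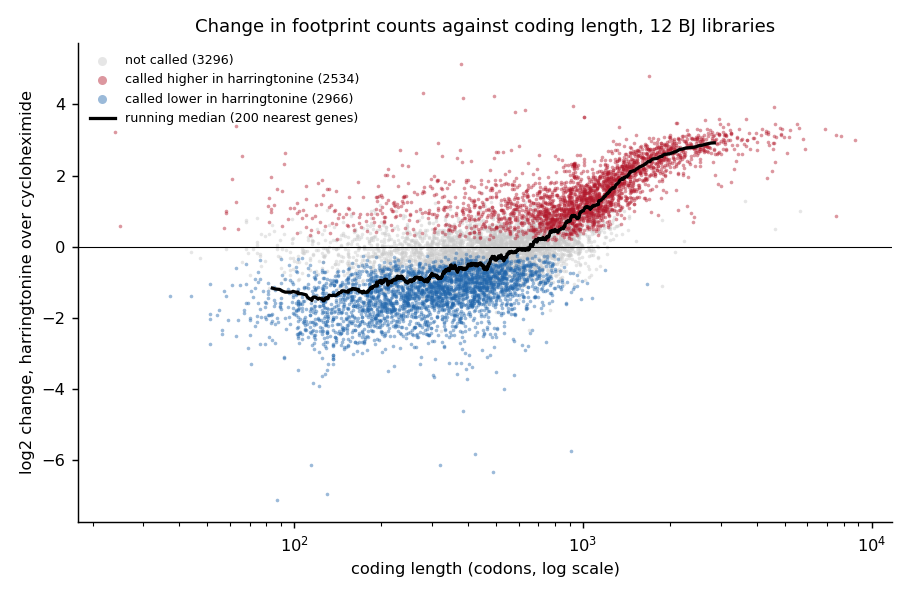
Log2 change of each gene (harringtonine over cycloheximide, vertical axis) against its coding length in codons (horizontal log axis), with 1 point per gene, coloured by the call, and the running median of the 200 genes nearest in length as a black line. The line lies below 0 for short coding regions, passes 0 at 657 codons and reaches 2.93 around 2898 codons, while single genes scatter on both sides of it below 800 codons.

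Grouped by length, the class of 100 to 199 codons fell furthest and the classes of 1600 codons and more stood highest. Between 100 and 199 codons, 68 genes were higher and 685 lower of 992, with a median log2 change of −1.28. Between 400 and 799 codons, 513 were higher and 880 lower of 3075, with a median of −0.18. From 800 to 1599 codons the balance lay the other way, with 1254 higher and 29 lower of 1682 and a median of 1.16. At 1600 to under 3200 codons 457 of 462 genes were higher (median 2.65), and at 3200 codons or more 65 of 68 were higher and none lower (median 3.04). The 3 that were not called at 3200 codons or more, CSMD2, DNAH14 and HMCN1, had mean counts of 3.42, 10.4 and 3.50 over the 12 libraries and log2 changes of 1.27, 0.50 and 1.02. Genes under 100 codons were split more than the next class, with 24 higher and 103 lower of 172 and a median of −1.05.

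The same shift was seen in the share of each library's counts. Coding regions of 1600 to under 3200 codons held 22.5% ± 1.64 of counts in harringtonine libraries and 4.16% ± 1.16 in cycloheximide libraries (SD, n = 6 each). The harringtonine libraries ran from 20.3 to 23.7% and the cycloheximide libraries from 3.18 to 5.63%, with no overlap. Those of 3200 codons or more held 5.07% ± 0.336 of counts in harringtonine libraries and 0.800% ± 0.372 in cycloheximide libraries. Coding regions of 100 to 199 codons held 6.52% ± 1.08 of counts in harringtonine libraries and 18.4% ± 2.89 in cycloheximide libraries, again without overlap. In all 7 length classes the harringtonine and cycloheximide libraries were fully apart, with an exact two-sided permutation p of 0.00216, the smallest that 924 splits of 12 libraries can give, and the same value after adjustment over the 7 classes. Within lines, where 216 splits exist, the exact p was 0.00926 in every class, also the smallest possible.

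**Figure D2:**
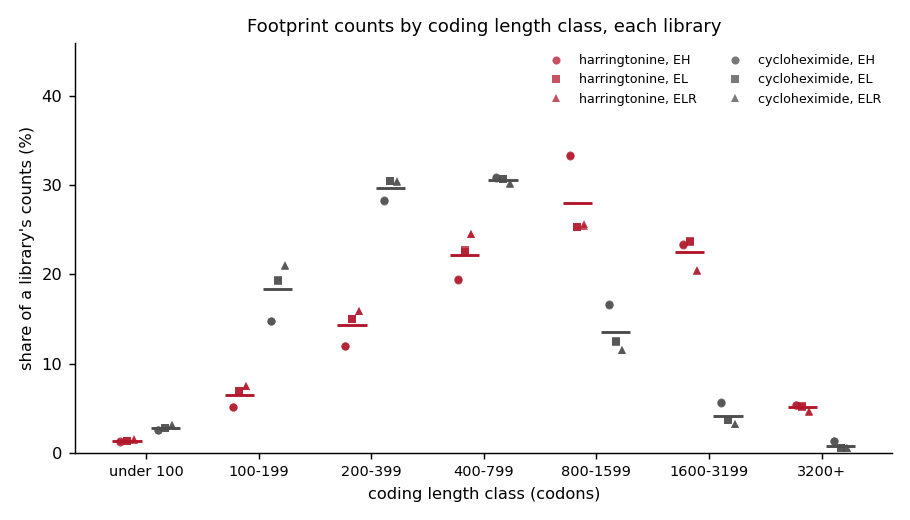
Share of each library's counts (vertical axis, %) in 7 classes of coding length (horizontal axis, codons), with harringtonine libraries in red left of cycloheximide libraries in grey, symbols for the lines and bars for the mean of 6 libraries. The classes from 800 codons up hold more of the harringtonine counts and the classes under 800 codons more of the cycloheximide counts in every line.

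Counts on coding regions of 1600 codons or more were divided by those on coding regions under 400 codons, a ratio that needs no scaling. In EH it was 1.56 and 1.56 in the harringtonine libraries against 0.152 and 0.151 in the cycloheximide libraries, 10.3-fold higher. In EL it was 1.24 and 1.25 against 0.0805 and 0.0804, 15.5-fold higher, and in ELR 1.01 and 1.01 against 0.0683 and 0.0685, 14.8-fold higher. Replicates differed far less than the drugs, and the exact permutation p over the 12 libraries was 0.00216. In RNA of the same lines, with 1 library each, the ratio was 0.635 in EH, 0.486 in EL and 0.425 in ELR, so each line's RNA value lay between its values under the drugs.

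The genes with the highest mean CPM in harringtonine were COL1A2, COL1A1, MYH9, FLNA, COL6A3, FN1, THBS1, AHNAK, CLTC and HSP90AA1. These are counts per transcript, taken to cover whole coding regions, and not levels per length. The 10 were all higher in harringtonine, and 9 of them are longer than 1100 codons, both of which the choice by harringtonine CPM favours. FN1, fibronectin, which binds cells to the matrix (2477 codons, chr2:216225163-216300796 on hg19), had 16970.5 and 15529 CPM in EH harringtonine libraries against 2456 and 2422 CPM in EH cycloheximide libraries, 13192 and 12719.5 CPM in EL harringtonine libraries against 1033 and 1013 CPM in EL cycloheximide libraries, and 1861 and 1797 CPM in ELR harringtonine libraries against 158 and 145 CPM in ELR cycloheximide libraries. In every line the harringtonine libraries lay above the cycloheximide ones, and ELR was lowest under both drugs. Its log2 change was 3.30 ± 0.08 (SE, edgeR adjusted p = 1.17e-60), and it was 2.74 in EH, 3.66 in EL and 3.58 in ELR. COL1A2, the second chain of type I collagen (1366 codons, chr7:94024207-94060539), had 46169 and 45072 CPM in EH harringtonine libraries against 10853 and 11079 CPM in EH cycloheximide libraries, 6287 and 6335 CPM in EL harringtonine libraries against 1130.1 and 1111 CPM in EL cycloheximide libraries, and 83.9 and 104 CPM in ELR harringtonine libraries against 17.9 and 21.9 CPM in ELR cycloheximide libraries. The 2 ELR harringtonine libraries thus lay below the cycloheximide libraries of EH and EL, and the drugs were apart only within a line. The log2 change was 2.26 ± 0.08 (edgeR adjusted p = 5.64e-47). MYH9, the heavy chain of nonmuscle myosin (1960 codons, chr22:36677326-36784055), had 12326 at the lowest, 13375 at the median and 17341 CPM at the highest in harringtonine libraries, against 1410.2, 1810.3 and 2480.4 CPM in cycloheximide libraries. The groups did not overlap, and its log2 change was 2.94 ± 0.08 (edgeR adjusted p = 3.41e-59).

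Matrix proteins, which fibroblasts secrete, parted by length. Of 30 listed, all tested, 22 were higher, 7 lower and 1 not called, with a median log2 change of 2.33. The higher ones were collagens, laminins, fibrillins and other proteins of more than 1000 codons, among them TNC (tenascin C, 3.11 ± 0.08), COL6A3 (3.001 ± 0.09), FBN1 (fibrillin 1, 3.003 ± 0.09) and the basement membrane proteoglycan HSPG2 (2.93 ± 0.10). The 7 lower ones were the shorter SPARC (−2.12 ± 0.09, 303 codons), the small proteoglycans DCN (−1.64 ± 0.20), BGN (−1.50 ± 0.19) and LUM (−1.18 ± 0.16), and FBLN1, LOX and TGFBI. POSTN, at 836 codons, was not called (0.58 ± 0.39). The list held 8.31% ± 6.13 of harringtonine counts and 2.56% ± 2.55 of cycloheximide counts (SD, n = 6). The 2 groups overlapped, since EH had 15.8 and 15.9% and ELR 2.43 and 2.46% under harringtonine, against 5.73 and 5.88% in EH and 0.492 and 0.497% in ELR under cycloheximide. The exact permutation p was 0.0563 over all libraries (adjusted over the 14 lists, 0.0606) and 0.00926 within lines.

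Large proteins of the cytoskeleton and its linkers were higher in 22 of 23 cases, with a median of 2.75. The exception was VIM, vimentin, which at 466 codons is the shortest of the list. VIM had 3531 at the lowest, 3727 at the median and 4760.0 CPM at the highest in harringtonine libraries, against 9532, 9913 and 12797 CPM in cycloheximide libraries, which do not overlap, and a log2 change of −1.43 ± 0.07 (edgeR adjusted p = 6.71e-38). The actin crosslinkers ACTN4 and ACTN1, at 911 and 914 codons, changed by 0.22 ± 0.07 and 0.47 ± 0.07. DYNC1H1, the motor chain of cytoplasmic dynein (4646 codons), had 3307 at the lowest, 4373 at the median and 5306 CPM at the highest in harringtonine libraries, against 299, 385 and 550.0 CPM in cycloheximide libraries. No harringtonine library overlapped a cycloheximide library, and its log2 change of 3.46 ± 0.09 was the highest of the list (edgeR adjusted p = 6.50e-61). SYNE1, a linker of the nucleus to actin and the longest coding region tested (8797 codons), changed by 2.99 ± 0.15, and DST and MACF1, which tie filaments together, by 3.12 ± 0.08 and 3.13 ± 0.08.

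Giant enzymes and nuclear proteins were higher in 31 of 31 cases, with log2 changes between 2.43 and 3.44 and a median of 3.13. They included PRKDC, the catalytic subunit of the DNA-dependent protein kinase (4128 codons), with 5461 ± 1487 CPM in harringtonine libraries and 615 ± 92.9 CPM in cycloheximide libraries (SD, n = 6) and a log2 change of 3.15 ± 0.09. The kinetochore motor CENPE changed by 3.32 ± 0.08, the spindle pole protein ASPM by 3.31 ± 0.08, the splicing factor PRPF8 by 3.14 ± 0.07, the fatty acid synthase FASN by 3.15 ± 0.09 and the kinase MTOR by 2.98 ± 0.10. The list held 4.29% ± 0.507 of harringtonine counts and 0.620% ± 0.133 of cycloheximide counts, with no overlap (exact permutation p = 0.00216, adjusted over 14 lists 0.00275). The lists of large proteins were made for their length, so their direction adds no evidence of its own.

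**Figure D3:**
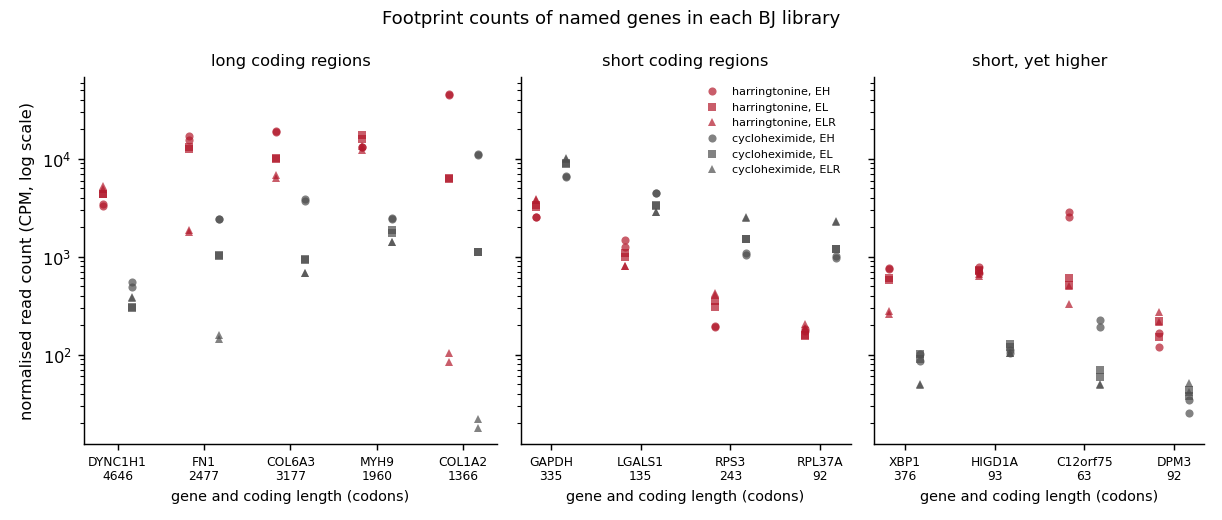
Normalised read count (CPM, log vertical axis) of 13 named genes in each of the 12 libraries, with harringtonine in red left of cycloheximide in grey and symbols for the lines. For DYNC1H1, FN1, COL6A3, MYH9 and COL1A2 the harringtonine libraries of each line lie above its cycloheximide libraries, for GAPDH, LGALS1, RPS3 and RPL37A they lie lower, and for XBP1, HIGD1A, C12orf75 and DPM3, all under 400 codons, they lie above.

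Ribosomal proteins, among the most counted short messages, were lower after harringtonine. Of 84 listed proteins of the cytosolic ribosome 82 were tested, 79 were lower and 2 higher, and the median log2 change was −1.997, with a median gap of −0.82 to genes of like length and 70 of 82 below them. They held 2.18% ± 0.682 of harringtonine counts and 8.48% ± 3.20 of cycloheximide counts (SD, n = 6, no overlap, exact permutation p = 0.00216, adjusted over 14 lists 0.00275). RPL37A of the large subunit (92 codons, chr2:217363548-217443903) had 154 at the lowest, 179 at the median and 204 CPM at the highest in harringtonine libraries, against 963, 1199 and 2318 CPM in cycloheximide libraries. All harringtonine libraries lay below all cycloheximide libraries, and its log2 change was −3.13 ± 0.11 (edgeR adjusted p = 1.01e-47). RPS3 of the small subunit (243 codons) had 189.7 at the lowest, 329 at the median and 422 CPM at the highest in harringtonine libraries, against 1044, 1504 and 2566 CPM in cycloheximide libraries, also apart, and changed by −2.45 ± 0.10. RPS12 was not called (−0.01 ± 0.08), and RPL41 (25 codons, 0.59 ± 0.12) and RPL36A (0.79 ± 0.07) were higher. Ribosomal protein genes have many near-identical copies in the genome, so single values can shift with how such reads were counted.

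Replication-dependent histones, which package new DNA, were lower in 36 of 40 tested and higher in none, with a median of −1.78. HIST1H3B, a histone H3 gene, had 60.4 at the lowest, 176 at the median and 261 CPM at the highest in harringtonine libraries, against 594, 1346 and 1656 CPM in cycloheximide libraries and changed by −2.80 ± 0.11, while the linker histones HIST1H1A and HIST1H1E were not called (−0.01 ± 0.12 and 0.02 ± 0.08). The H2A, H2B, H3 and H4 genes are near-identical within each class, so the counts of single genes are uncertain. The list held 0.667% ± 0.273 of harringtonine counts and 2.18% ± 0.962 of cycloheximide counts, without overlap.

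Short subunits of the respiratory chain were lower in 30 of 36 and higher in 4, with a median of −1.73. COX4I1, a subunit of cytochrome oxidase, had 61.2 at the lowest, 97.7 at the median and 147 CPM at the highest in harringtonine libraries, against 305, 408 and 525 CPM in cycloheximide libraries and changed by −2.18 ± 0.13, and UQCRB of the cytochrome bc1 complex changed by −2.17 ± 0.15. The 4 higher ones were C14orf2 (1.01 ± 0.11), COX7A2 (0.97 ± 0.08), NDUFB1 (0.95 ± 0.13) and ATP5G2 (0.22 ± 0.09). Of 41 other short cytosolic and nuclear proteins 29 were lower and 4 higher, with a median of −1.30. LGALS1, a galectin (135 codons), had 797 at the lowest, 1050.1 at the median and 1466 CPM at the highest in harringtonine libraries, against 2873, 3311 and 4514 CPM in cycloheximide libraries, which do not overlap, and changed by −1.74 ± 0.08 (edgeR adjusted p = 6.96e-41). The calcium-binding S100A6 changed by −1.59 ± 0.08 and the actin-binding CFL1 and PFN1 by −1.51 ± 0.08 and −1.49 ± 0.08. The higher ones of the 41 were the chromatin protein HMGN1 (1.09 ± 0.13), the metallothionein MT1X (1.90 ± 0.28) and PTMA and PTMS, prothymosin and parathymosin (0.55 ± 0.07 and 0.94 ± 0.12). Several of these short genes have near-identical copies, which adds to the uncertainty of their counts.

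Proteins of middle length moved both ways. All 13 actins and tubulins tested were lower (median −1.04, 375 to 451 codons). ACTB, cytoplasmic actin, had 5154 at the lowest, 5362 at the median and 6079 CPM at the highest in harringtonine libraries, against 10237, 11052 and 12709 CPM in cycloheximide libraries, which do not overlap, and changed by −1.04 ± 0.07 (edgeR adjusted p = 5.22e-28). Of 18 glycolytic enzymes 10 were lower and 6 higher, with a median of −0.54, and with library totals alone 10 were lower and 3 higher. Over all genes tested 33.7% were lower and 28.8% higher. GAPDH had 2535 at the lowest, 3286 at the median and 3848 CPM at the highest in harringtonine libraries, against 6498, 9039.9 and 10204 CPM in cycloheximide libraries, apart in every line, and changed by −1.41 ± 0.07. Among the higher enzymes, PFKM changed by 1.03 ± 0.13, the hexokinase HK2 by 0.67 ± 0.16, and PKM, which makes pyruvate, by 0.65 ± 0.07 at 531 codons. LDHA and LDHB, the subunits of lactate dehydrogenase, have 332 and 334 codons and changed by 0.35 ± 0.07 and −1.35 ± 0.09.

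Among 31 chaperones and folding enzymes tested, 23 were lower and 7 higher (median −0.78), against 33.7% lower and 28.8% higher over all genes. The higher ones were the longer HSPH1 (1.37 ± 0.08), HSP90AA1 (0.998 ± 0.07), HYOU1, HSPA4, HSP90B1, HSPA5 and HSP90AB1, of 654 to 999 codons, and the lowest was the mitochondrial HSPE1 (−2.29 ± 0.15, 102 codons). HSP90AA1 had 3834 at the lowest, 5325 at the median and 9259 CPM at the highest in harringtonine libraries, against 2066, 2769.8 and 4331 CPM in cycloheximide libraries. The groups overlapped across lines but were apart within every line. The EH harringtonine libraries, at 4363 and 3834 CPM, lay on either side of the ELR cycloheximide libraries, at 4331 and 4180 CPM. The log2 change stood 0.77 above the median of genes of like length. Of 49 translation factors 29 were lower and 12 higher (median −0.56), against the same 33.7% and 28.8% over all genes. The scaffolds EIF4G1, EIF4G2 and EIF4G3 changed by 2.33 ± 0.07, 1.88 ± 0.07 and 2.84 ± 0.11 and the eIF3 subunit EIF3A by 2.31 ± 0.07, while the eIF3 subunits EIF3I and EIF3H, at 325 and 352 codons, changed by −2.04 ± 0.11 and −1.61 ± 0.13. EIF5A, whose protein carries hypusine, was higher at 154 codons (1.09 ± 0.07). The share of counts on translation factors was 1.93% ± 0.425 in harringtonine libraries and 2.19% ± 0.464 in cycloheximide libraries, and over all 12 libraries the difference was smaller than the spread between lines (exact permutation p = 0.329). Within each line the harringtonine libraries were lower (exact p within lines 0.00926).

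Messages with known regulatory upstream reading frames, short frames ahead of the main one that can hold ribosomes, had 5 higher, 5 lower and 6 not called of 16 tested (median 0.02), shares close to the 28.8% higher and 33.7% lower over all genes tested. EPRS, a tRNA synthetase of 1512 codons, was highest (2.68 ± 0.07), followed by the stress phosphatase subunit PPP1R15A (1.74 ± 0.22, 674 codons). PPP1R15A had 43.1 at the lowest, 75.5 at the median and 110.1 CPM at the highest in harringtonine libraries, against 15.01, 25.2 and 27.9 CPM in cycloheximide libraries, apart in every line. ATF4, the stress transcription factor, was not called (−0.04 ± 0.27), and the cystine transporter SLC7A11 was lowest (−2.54 ± 0.46). Of 27 immediate-early and labile regulators tested out of 38, 4 were higher and 11 lower (median −0.28), against 28.8% higher and 33.7% lower over all genes. Set against genes of like length, 20 of the 27 lay above them, with a median gap of 0.32. The inhibitors of DNA binding ID1, ID2 and ID3 were lower (−1.99 ± 0.16, −1.83 ± 0.30 and −2.17 ± 0.16), and ZFP36L1, which binds AU-rich messages, was higher (1.66 ± 0.11). Of 14 selenoproteins tested 8 were lower and 1, SEPW1, was higher (median −0.47). SEPW1, at 87 codons, had 18.5 at the lowest, 29.5 at the median and 41.9 CPM at the highest in harringtonine libraries, against 8.08, 10.4 and 12.96 CPM in cycloheximide libraries and changed by 1.61 ± 0.36.

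**Figure D4:**
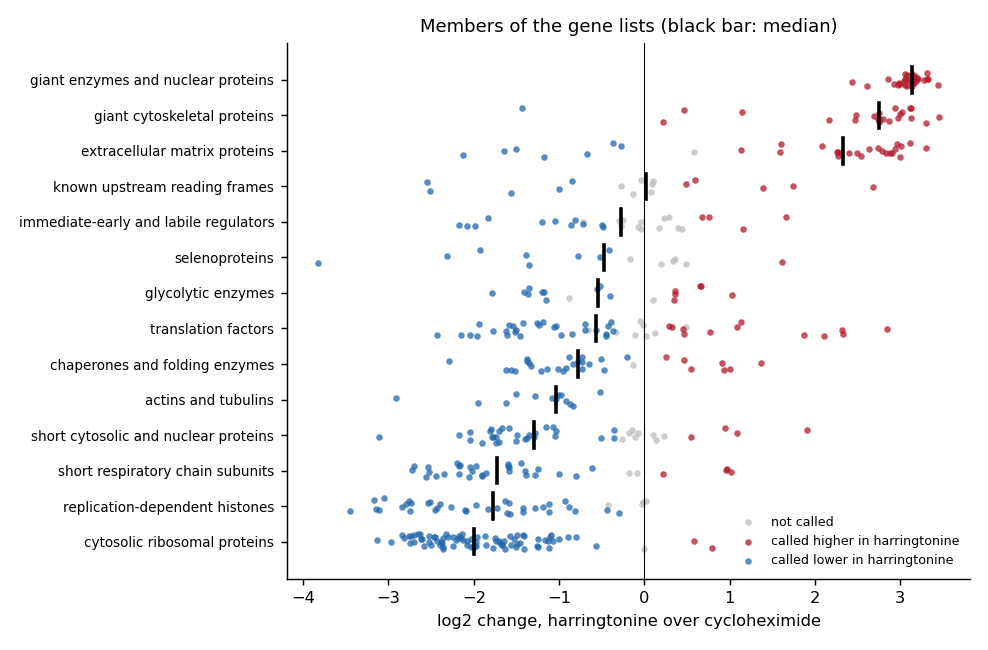
Log2 change (harringtonine over cycloheximide, horizontal axis) of each tested member of 14 gene lists, with 1 point per gene, red where called higher, blue where called lower and grey where not called, and a black bar at the list's median. Medians run from 3.13 for giant enzymes and nuclear proteins down to −1.997 for cytosolic ribosomal proteins, and several lists of middle length span both sides of 0.

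Among genes above the median count whose libraries were apart in every line, the 12 largest increases were SMG1, HELZ2, DYNC1H1, VPS13A, MLL2, C12orf75, BOD1L1, MDN1, HERC2, CENPE, ASPM and FN1. All but C12orf75 are longer than 2400 codons. SMG1, a kinase of nonsense-mediated decay, had 330.3 at the lowest, 501 at the median and 561 CPM at the highest in harringtonine libraries, against 28.1, 42.2 and 45.03 CPM in cycloheximide libraries. Its groups did not overlap, and it changed by 3.58 ± 0.11 (edgeR adjusted p = 1.42e-52). MLL2, a histone methyltransferase, changed by 3.44 ± 0.14 and MDN1, which acts in ribosome assembly, by 3.34 ± 0.11. The 12 largest decreases were 6 histone genes, HIST1H2AI, HIST1H3A, HIST1H3D, HIST1H3J, HIST1H3H and HIST1H3I, together with RPL37A, SNRPE, SPTSSA, MRPS6, MPHOSPH6 and CETN2, all under 200 codons. HIST1H2AI, MPHOSPH6 and CETN2 were at 0 in both EH harringtonine libraries. SPTSSA and MRPS6 ran from 0 to 9.24 and from 0 to 12.2 CPM in harringtonine libraries. The places of these genes in the ranking rest on values near the floor. SNRPE, a core protein of the spliceosome (92 codons), had 12.2 at the lowest, 31.1 at the median and 49.3 CPM at the highest in harringtonine libraries, against 209.8, 275 and 319 CPM in cycloheximide libraries, apart from each other, and changed by −3.11 ± 0.19 (edgeR adjusted p = 5.48e-29).

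Set against the median of the 200 genes nearest in length, the lists differed less. The median gap was 0.09 for matrix proteins, −0.12 for large cytoskeletal proteins and 0.24 for giant enzymes and nuclear proteins. The longest genes share the same reference genes, and so do the shortest. SMG1 at 3661 codons and MLL2 at 5537 codons were both set against a median of 2.93. For the largest proteins the gap is therefore not fully matched in length. It was −0.02 for short cytosolic and nuclear proteins, with 21 below and 20 above, and −0.09 for translation factors. Lists below genes of like length were cytosolic ribosomal proteins (−0.82), glycolytic enzymes (−0.60), actins and tubulins (−0.51), histones (−0.51), respiratory subunits (−0.49) and chaperones (−0.44). Immediate-early and labile regulators (0.32), selenoproteins (0.32) and messages with upstream reading frames (0.16) lay above. The 200 nearest genes of a member can include other members of its list.

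A small number of short coding regions held more of the harringtonine counts. Of 3509 genes under 400 codons, 245 were called higher, 135 of them by at least 2-fold. Of 1932 such genes above the median count, 72 were called higher with libraries apart in every line. C12orf75 (63 codons, chr12:105629068-105789875), a gene of little known function, had 2854 and 2568 CPM in EH harringtonine libraries against 226 and 192 CPM in EH cycloheximide libraries, 612 and 511 CPM in EL harringtonine libraries against 69.9 and 59.6 CPM in EL cycloheximide libraries, and 498 and 327 CPM in ELR harringtonine libraries against 49.2 and 50.3 CPM in ELR cycloheximide libraries. The harringtonine libraries lay above in every line, with EH highest, and its log2 change of 3.40 ± 0.09 (edgeR adjusted p = 6.63e-60) stood 4.58 above the median of genes of like length. XBP1, a transcription factor of the unfolded protein response (376 codons, chr22:29190543-29196585), had 262 at the lowest, 587 at the median and 759 CPM at the highest in harringtonine libraries, against 48.5, 88.2 and 101 CPM in cycloheximide libraries. The groups did not overlap, and it changed by 2.71 ± 0.10 (edgeR adjusted p = 7.79e-46). HIGD1A, a small mitochondrial protein induced by hypoxia (93 codons, chr3:42824400-42845982), had 631 at the lowest, 692 at the median and 793 CPM at the highest in harringtonine libraries, against 103, 109 and 128 CPM in cycloheximide libraries, without overlap, and changed by 2.63 ± 0.08 (edgeR adjusted p = 7.92e-52). C4orf3 (66 codons, of 199 in its longest annotated form) changed by 2.54 ± 0.14 and DPM3, an anchor of the dolichol phosphate mannose synthase (92 codons), by 2.33 ± 0.15. GTF3A, a factor for 5S RNA transcription, changed by 2.48 ± 0.15, ARL6IP4 by 2.30 ± 0.10, LSMD1 by 1.87 ± 0.11, the nucleotide kinase CMPK1 by 1.71 ± 0.10, the apoptosis protein BID by 1.70 ± 0.15 and SLC2A4RG by 1.65 ± 0.20. These short genes were picked after their values were seen and are given as a description. They are among the largest increases under 400 codons of genes above the median count with libraries apart in every line.

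The sequence around the start codon is shown because harringtonine acts there. The first set holds the short higher genes of the paragraph above, with ZFP36L1, in order of their log2 change. GTF3A is left out, since its annotated coding region does not begin with ATG. Each line gives 13 bases of the coding strand from GRCh37 with the GENCODE annotation, 5′ to 3′. Capitals mark the base 3 before the start codon, the start codon itself and the base after it.
C12orf75: tgcGcgATGGgct
XBP1: ggaGctATGGtgg
HIGD1A: atcActATGTcaa
C4orf3: agcGagATGGagg
DPM3: gtgAccATGAcga
ARL6IP4: ggcGccATGGctc
LSMD1: gggCaaATGGccg
CMPK1: cggTgtATGCtga
BID: cagGccATGGact
ZFP36L1: cacAggATGAcca
SLC2A4RG: ccgGccATGGagc
The second set holds the 12 largest decreases named above, all short.
HIST1H2AI: tttGccATGTctg
SPTSSA: aggCgcATGGcgg
HIST1H3A: tccGtcATGGctc
HIST1H3D: ttcGcaATGGctc
MRPS6: ccaGgcATGCccc
RPL37A: ggcGacATGGcca
HIST1H3J: tcaActATGGccc
SNRPE: tccAccATGGcgt
HIST1H3H: gaaGgcATGGcgc
HIST1H3I: ttaGccATGGcac
MPHOSPH6: gctAccATGGcgg
CETN2: ttgGctATGGcct

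A purine 3 bases before the start codon and a G after it are the best known features of a strong start site. Over the 8753 tested genes with a known start context, 88.6% had the purine and 54.9% the G. Genes without an annotated ATG start, or with too little sequence around it, are not among them. Among genes called higher the shares were 86.3% and 53.5%, and among genes called lower 93.5% and 56.4%. Under 400 codons the purine was found in 78.2% of 239 genes called higher and in 93.6% of 2051 called lower, against 89.7% of all 3496. Neither feature was found in 10.5% of the short genes called higher and 2.39% of those called lower. Of the sequences above, CMPK1 lacks both features, and LSMD1, which was higher, and SPTSSA, which was lower, lack the purine. All 82 ribosomal proteins tested had at least 1 of the features, and 97.6% had the purine. These shares were not tested, since genes are not replicates.

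The 3 lines had the same order of length classes. EH had the lowest median log2 change in every class, by most for the longest genes. At 3200 codons or more the median was 2.49 in EH, 3.33 in EL and 3.26 in ELR. At 800 to 1599 codons it was 1.11, 1.12 and 1.18, and from 400 to under 800 codons −0.37, −0.16 and −0.15. Taken gene by gene, EL minus EH had a median of 0.13 over all genes with a coding length and 0.40 at 1600 codons or more. For ELR minus EH these medians were 0.15 and 0.35. The part of a shift common to all genes in the lower EH values was not tested. The running median passed 0 at 715 codons in EH, 653 in EL and 654 in ELR. A test of both line by drug terms together called 162 genes (1.84% of 8818) in edgeR's quasi-likelihood model. Of these, 82 have 1600 codons or more, and 81 of the 82 had their smallest log2 change in EH. The exception was MAP4, a microtubule protein. The change in EL was larger than in EH for 108 genes (1.22%) and smaller for 16 (0.181%). In ELR it was larger than in EH for 126 (1.43%) and smaller for 22 (0.249%), while ELR was above EL for 3 (0.034%) and lower for 5 (0.0567%). The called genes were also highly counted, with a median of 707 CPM against 40.0 CPM over all genes tested. Without the first EH harringtonine library 103 genes were called, and without the other 105. Replicates of a group differed little beyond what sampling noise alone gives (mean chi-square per gene 1.09 to 1.17). The p-values for differences between lines thus rest on a spread that may be technical only, and may not hold for other cultures.

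COL6A3, a chain of type VI collagen (3177 codons), had 19256 and 18624 CPM in EH harringtonine libraries against 3723 and 3847 CPM in EH cycloheximide libraries, 10137 and 9872 CPM in EL harringtonine libraries against 951 and 922 CPM in EL cycloheximide libraries, and 6428 and 6900.4 CPM in ELR harringtonine libraries against 683 and 680.2 CPM in ELR cycloheximide libraries. EH was highest under both drugs, and the log2 change was 2.32 in EH, 3.42 in EL and 3.29 in ELR, a difference of 1.09 between EL and EH (edgeR adjusted p over both terms 6.86e-96). FLNC, an actin crosslinker, changed by 2.05 in EH, 3.18 in EL and 3.18 in ELR (adjusted p = 4.43e-72) and AHNAK, a giant scaffold protein, by 2.20 in EH, 3.25 in EL and 2.85 in ELR (adjusted p = 1.02e-61). FN1, MYH9, COL12A1, PLEC and FLNA were the next by p, with EL above EH by 0.74 to 1.18. Over all 530 genes of 1600 codons or more, called or not, 66.6% had their smallest change in EH, against 44.7% of all genes with a coding length. EH harringtonine libraries were the shallowest of the 6, at 129704 and 144646 counts, and EH had the highest share of long coding regions under cycloheximide. The part of these values in the difference was not tested.

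**Figure D5:**
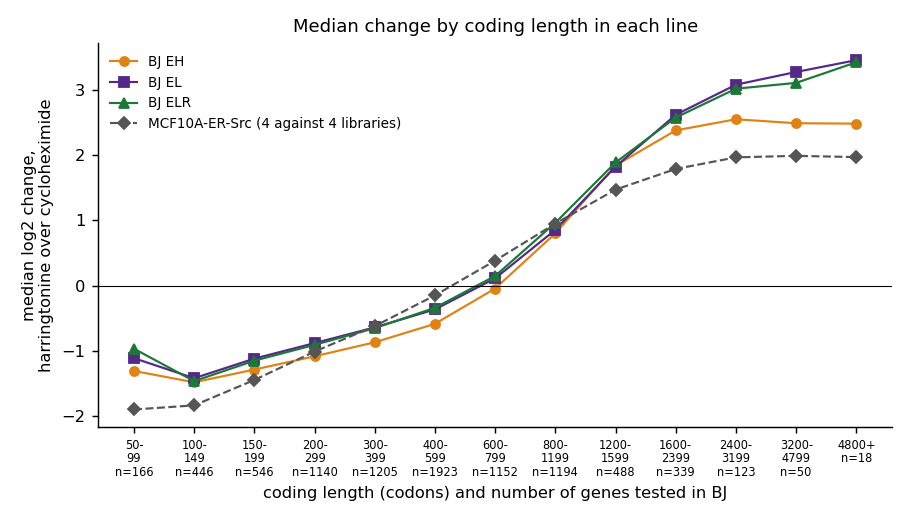
Median log2 change (harringtonine over cycloheximide, vertical axis) in 13 bins of coding length (horizontal axis, codons, with the number of genes tested in BJ) for EH, EL, ELR and MCF10A-ER-Src cells. EH lies lowest of the BJ lines in every bin except 1200 to under 1600 codons, and furthest below the others from 2400 codons up. ER-Src lies under all BJ lines at 50 to under 200 codons and from 1200 codons up.

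The same contrast was made in MCF10A-ER-Src, a breast epithelial line in which 1 µM 4-hydroxy-tamoxifen switches on a Src kinase, with 4 harringtonine libraries (0, 1, 4 and 24 h, replicate 1) against the 4 cycloheximide libraries of the same times. These share no library with BJ. Of 9564 genes 5063 (52.9%) were called, of which 2361 (24.7%) were higher and 2702 (28.3%) lower after harringtonine. Among 8104 genes tested in both, 1733 of the 2305 higher in BJ were also higher in ER-Src (75.2% of the BJ genes, 80.0% of the 2165 ER-Src genes) and 67 were lower. Of 2827 lower in BJ, 1945 were lower in ER-Src and 43 higher. The long to short ratio was higher after harringtonine by 9.58-, 11.4-, 10.3- and 4.55-fold at 0, 1, 4 and 24 h, with 1 library per drug at each time. The median change at 1600 to under 3200 codons was 2.66 in BJ and 1.82 in ER-Src over the same genes, and at 3200 codons or more 3.08 and 1.99. Under 100 codons it was −1.07 in BJ and −1.90 in ER-Src.

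A test of the drug by cell model term called 1519 of 10577 genes (14.4%), 792 higher in BJ (7.49%) and 727 lower (6.87%). At 1600 to under 3200 codons 257 of 462 genes were called higher in BJ, and at 3200 codons or more 47 of 68. None was lower in either class. At 400 to 799 codons the balance was the other way, with 52 higher and 406 lower in BJ of 3075 genes. Of 2345 genes at 200 to 399 codons 135 were higher and 173 lower. By the long to short ratio, which needs no scaling, the models were not apart in every line. The fold was 10.3 in EH, within the 9.58 to 11.4 of ER-Src at 0, 1 and 4 h. It was 15.5 in EL and 14.8 in ELR, and 4.55 in ER-Src at 24 h. The part of single lines and times in the calls by length was not tested. The smallest p-values belonged to 6 short genes, PTMA, HIGD1A, ATP5J2, TMSB10, RPL36A-HNRNPH2 and BTF3, each with a higher signed log2 change in BJ than in ER-Src. PTMA changed by 0.55 ± 0.07 in BJ and −1.66 ± 0.170 in ER-Src. HIGD1A changed by 2.63 ± 0.08 in BJ and 0.73 ± 0.169 in ER-Src, and was called higher in both. ATP5J2, a subunit of ATP synthase, was not called in BJ (−0.08 ± 0.11) and lower in ER-Src (−3.10 ± 0.225). RPL36A-HNRNPH2 is a read-through transcript that shares its start with RPL36A, so their counts cannot be told apart. Cell type and tamoxifen time differ between the models and cannot be told apart. No label names a batch, and a batch could not be told apart from them either.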

How the data were processed

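Footprints from 6 harringtonine and 6 cycloheximide libraries of BJ lines were compared, with 8 ER-Src libraries and 3 BJ RNA libraries beside them. The deposited values are counts per RefSeq transcript, made by the authors after alignment with TopHat to hg19, per the submitters' processing notes; the counting program and the counted region are not given in the sources used here. Counts were taken to cover coding regions. Of 36499 transcript rows the one with the highest mean count over the 12 libraries stood for each of 19137 symbols, and 7636 symbols had several rows. Coding lengths came from the canonical transcript of GENCODE release 44 on GRCh37, the assembly of hg19, for 18812 symbols holding 99.8% of counts. Of these, 17585 were matched by symbol and 1188 by accession, and the coding length of the counted transcript may differ.

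Genes passing edgeR's filter (minimum count 10, total 15) were scaled by TMM and fitted with edgeR 4.0.16 in R 4.3.3 (line plus drug, line by drug, and drug by model). The quasi-likelihood tests are two-sided, and the threshold on the adjusted p was 0.05. DESeq2 1.42.0 served as an alternative. CPM are TMM-scaled counts per 1e6, errors of log2 changes are SE and others SD. Shares of counts were tested by exact two-sided permutation over libraries. The fit was tested on simulated counts. The members, the 14 gene lists and the alternatives were chosen with earlier results of these data known. Genes were named by rule: the 12 largest changes each way above the median count with libraries apart in every line, the 10 highest in harringtonine, up to 4 per list by p, 2 per length class, 8 by line and 6 by model. Other members of lists and the short and long exceptions were named after their values were seen. List symbols follow the files. The depth of the harringtonine libraries limits the precision of low genes.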

Additional observations from a re-analysis of the deposited data

Results flagged for a closer look

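The drug difference itself differed between lines for 162 genes in edgeR's line by drug test. The largest of these by p are long genes whose log2 change was larger in EL than in EH. The difference, EL minus EH, was 1.09 for COL6A3, 1.13 for FLNC, 1.06 for AHNAK, 0.92 for FN1, 0.77 for MYH9, 1.18 for COL12A1, 0.95 for PLEC and 0.74 for FLNA.

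The drug difference also differed between BJ and ER-Src cells, for 1519 genes. The smallest p-values belonged to short genes, with a log2 change in BJ minus that in ER-Src of 2.12 for PTMA, 1.82 for HIGD1A, 2.89 for ATP5J2, 1.78 for TMSB10, 1.71 for RPL36A-HNRNPH2 and 1.58 for BTF3. These come from 1 joint fit of 20 libraries, so they differ a little from the difference of the 2 separate fits.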

How the results depend on the processing

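The number of genes called for the drug was 5510, and lay between 4546 and 5886 with other scalings, DESeq2, no filter, thinned cycloheximide libraries or another transcript row. With a stricter filter 1965 genes were called lower, of 4808 tested. Fewer libraries gave fewer calls: EH alone 3267 (1570 higher, 1697 lower) and EL alone 3558 (1782 lower). Leaving out 1 library gave 5208 to 5480. No call turned to a call of the other sign under the 23 alternatives, of which the stricter filter tested 3616 of the 5510 calls and the other transcript row 5504. The line by drug count of 162 was 299 with library totals alone and 103 to 159 with 1 library left out. The share on matrix proteins differed by 4.24 to 6.93 percentage points with 1 library left out, past the threshold without either ELR harringtonine library (6.93 and 6.92) and, at 5.75, in the test within lines. The share on translation factors, a difference of −0.25 percentage points (−0.252), passed within lines. TMSB10 turned to 0.19 in ELR alone, and ATP5J2 to 0.13 in EL alone and 0.14 with thinning. The long to short fold of 13.3 was 12.97 without the 10 genes of highest share and 12.5 to 14.6 with 1 library left out, alternatives added after seeing the data. With the shortest annotated coding region per symbol the median at 400 to 799 codons was 0.02 in place of −0.18. Causes were not tested. Replicate numbers did not pair the samples (correlation of deviations 0.004, 0.020 and 0.010), and the fit with a replicate block called 5490 genes for the drug and 172 for line by drug.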

Other observations

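Some long coding regions did not follow their length. Of 2212 genes of 800 codons or more, 30 were lower after harringtonine. They were picked after their values were seen. RTN3 and RTN4, reticulons that shape the endoplasmic reticulum, have 1032 and 1192 codons in their canonical form and 214 and 199 in the shortest annotated one. RTN4 had 324 at the lowest, 553 at the median and 871 CPM at the highest in harringtonine libraries, against 599, 703 and 1654 CPM in cycloheximide libraries, lower within every line but overlapping across lines, and changed by −0.65 ± 0.09 (SE, edgeR adjusted p = 1.77e-10), and RTN3 changed by −1.02 ± 0.15. NACA, a chaperone subunit at the ribosome, has 2078 codons in its canonical form and 136 in its shortest, and was not called (−0.16 ± 0.08, edgeR adjusted p = 0.0734). Other long genes have longer shortest forms, of 841 codons for MED16 and 737 for STAT6. The Mediator subunit MED16, at 877 codons, changed by −1.57 ± 0.28 with 23.9 ± 12.4 CPM in harringtonine libraries and 65.8 ± 5.37 CPM in cycloheximide libraries (SD, n = 6), and the transcription factor STAT6, at 847 codons, changed by −1.002 ± 0.27. MED16 missed the threshold in the EH libraries alone (adjusted p = 0.206) and STAT6 in the ELR libraries alone (adjusted p = 0.457).

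KRT10, a keratin of 584 codons, had 97.9 at the lowest, 207 at the median and 242 CPM at the highest in harringtonine libraries, against 12.4, 14.2 and 15.01 CPM in cycloheximide libraries. It changed by 3.78 ± 0.18 (edgeR adjusted p = 1.53e-36), which stood 3.95 above the median of genes of like length. It fell below the count required of the named genes and was picked after its values were seen.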
